A study of Mus musculus with 9 samples.

Results

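The epidermal growth factor (EGF) receptor and its ligands were followed in sorted mouse fibroblasts through 6 genes chosen by symbol: Hbegf, Ereg, Areg, Tgfa and Nrg1, which encode ligands, and Egfr, which encodes the receptor. All 6 were found among the 27370 genes of the count table. Of the ligands, 4 (heparin-binding EGF-like growth factor, epiregulin, amphiregulin and transforming growth factor alpha) bind EGFR, and neuregulin 1 binds ERBB3 and ERBB4. Hbegf here is the mouse gene.

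PolyA RNA was sequenced from 9 libraries, 3 in each of 3 groups. Depleted RPF were red pulp fibroblasts from the spleens of 6 mice treated with diphtheria toxin, steady RPF were the same cells from 6 untreated mice, and FRC were fibroblastic reticular cells from 78 lymph nodes of untreated mice. All mice were 4 months old and carried the same 3 alleles, Wt1CreERT2, RosatdTomato and CD64DTR, so the untreated groups also held the toxin receptor transgene. The toxin receptor is placed under the control of CD64, an Fc receptor of macrophages, so that the toxin kills cells that express it, and Wt1CreERT2 switches on tdTomato in cells of the Wt1 lineage. After a CD45-negative enrichment, cells stained for gp38, CD31 and VCAM1 were sorted as tdTomato-positive RPF or tdTomato-negative FRC, 45000 cells per group. Each library pooled 2 mice. Of 12 mice in all, 6 were treated, so the lymph nodes and the untreated spleens came from the same 6 mice, but the labels do not say which libraries share them. They do not state the dose or timing of the toxin either.

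EGF family ligands are made as membrane-anchored precursors that metalloproteinases of the ADAM family release from the cell surface. A released ligand makes ErbB receptors dimerise and signal through RAS and ERK, and ERK in turn switches on early-response genes and inhibitors that limit the signal. In connective tissue, several of these ligands are known for roles in wound repair and in the exchange of signals between macrophages and fibroblasts. Human HB-EGF is also the natural diphtheria toxin receptor, and it is the protein commonly used to make mouse cells sensitive to the toxin.

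Library totals ran from 25414645 counts in steady RPF library 3 to 43879806 counts in FRC library 3. Levels are given as counts per 1e6 counts of the library (CPM) scaled with TMM factors, with SD over 3 libraries, and levels of different genes are set side by side only per kilobase of exon. The call rule was an adjusted p under 0.05 (Benjamini-Hochberg over 15103 tested genes) in edgeR's two-sided quasi-likelihood test. The labels were checked first. Wt1 averaged 34.3 CPM in depleted RPF, 62.1 CPM in steady RPF and 1.64 CPM in FRC. Pdpn, which encodes gp38, averaged 0.0733 CPM in depleted RPF and 0.0981 CPM in steady RPF, against 74.1 CPM in FRC, so the RPF libraries all but lacked this stromal marker. Of the 8 reticular fibroblast markers, 1 was called higher and 3 lower in depleted than in steady RPF. Pdgfrb averaged 2331 CPM in depleted and 942 CPM in steady RPF, whereas Col1a2 averaged 806 CPM in depleted and 1855 CPM in steady RPF, Col3a1 809 CPM in depleted and 1636 CPM in steady RPF, and the sort marker Vcam1 1035 CPM in depleted and 1590 CPM in steady RPF. Pdgfra, at 442 CPM in depleted RPF, 358 CPM in steady RPF and 673 CPM in FRC, was not called between the RPF groups. The part of this shift of fibroblast genes in the members' levels was not tested. Steady RPF library 1 and FRC library 1 held 1 and 0 counts on Y-linked genes, against 2285 to 6101 counts in the other 7 libraries. In bulk RNA, fewer cells of a type and less RNA per cell cannot be told apart.

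Of the 6 members, 4 passed the filter on low counts and were tested, and Areg and Nrg1 did not. Ereg, with 0 counts in steady RPF and 1 count in FRC, passed only through the depleted libraries. It therefore could not be called lower in depleted RPF, and its place in the counts below has this limit. In depleted against steady RPF, 3 of the 4 were called higher (Hbegf, Ereg and Egfr) and none lower, where 11.1% of all tested genes were called higher and 9.96% lower (21.0% in either direction). In steady RPF against FRC, 2 of the 4 were called lower (Tgfa and Egfr) and none higher, where 14.4% of tested genes were called lower and 11.5% higher (25.9% in all). In depleted RPF against FRC, Hbegf and Ereg were called higher and Tgfa and Egfr lower, beside 16.9% of tested genes called higher and 18.8% lower (35.8% in all). Each group enters 2 of these 3 comparisons, so the comparisons are not independent of each other.

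**Figure D1:**
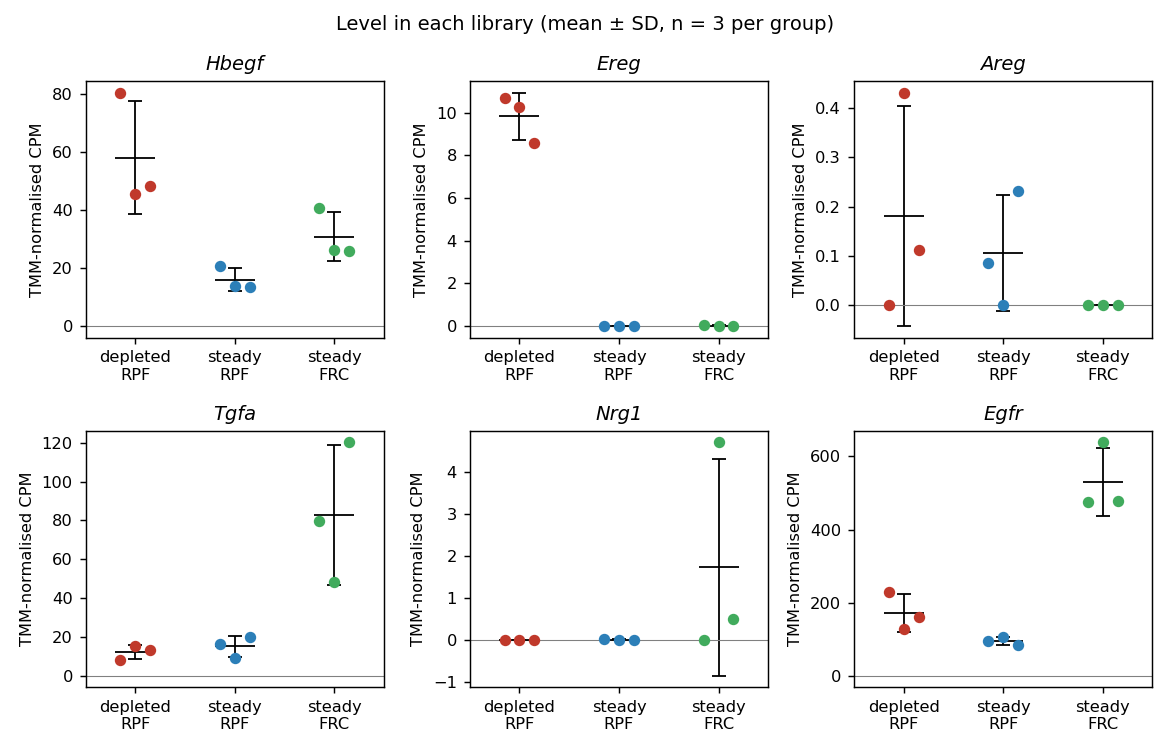
Level of each of the 6 members in every library, as TMM-normalised CPM on a linear axis that differs between panels; points are libraries, bars the mean and SD of 3 libraries. Depleted RPF stand above steady RPF for Hbegf, Ereg and Egfr, FRC stand above both RPF groups for Tgfa and Egfr, and Areg and Nrg1 lie near 0 in most libraries.

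Hbegf (ENSMUSG00000024486, chromosome 18, 36504929 to 36515805, minus strand, mm10) encodes a ligand that binds EGFR and ERBB4 and is held near the cell surface by heparan sulphate. Its level was 80.6, 45.5 and 48.5 CPM in the depleted RPF libraries, against 20.7, 13.9 and 13.5 CPM in the steady RPF libraries. FRC libraries had 40.8, 26.2 and 25.8 CPM. Depleted RPF were thus highest, FRC intermediate and steady RPF lowest, with no overlap between any of the groups. Hbegf averaged 58.2 ± 19.5 CPM in depleted RPF and 16.0 ± 4.08 CPM in steady RPF (SD, n = 3 each), a 3.63-fold rise (log2 fold change 1.86, SE 0.32, edgeR adjusted p = 0.00336). Against the FRC mean of 30.9 ± 8.54 CPM, depleted RPF were 1.88-fold higher (log2 fold change 0.91, SE 0.31, edgeR adjusted p = 0.0477). This call was lost in 11 of 21 alternatives, among them the fits without depleted RPF library 1 (adjusted p = 0.175), FRC library 2 (adjusted p = 0.124) or FRC library 3 (adjusted p = 0.127). The difference between steady RPF and FRC did not pass the test (log2 fold change -0.95, SE 0.31, edgeR adjusted p = 0.0531), and 4 of 21 alternatives called it, with DESeq2 at an adjusted p of 0.0232.

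The toxin receptor transgene and the macrophages meant to carry it bear on this gene. Fcgr1, which encodes CD64, had 0 counts in every depleted RPF library, 45, 85 and 0 counts in the steady RPF libraries, and 1, 0 and 0 counts in the FRC libraries. Libraries with no Fcgr1 count thus included the 3 with the highest Hbegf level and also steady RPF library 3, which had the lowest. The 10 markers of red pulp macrophages summed to 79.3 to 115 CPM in depleted RPF and 242 to 281 CPM in steady RPF (exact two-sided permutation test, p = 0.1, the smallest 3 against 3 libraries allow), with Adgre1, Fcgr1, C1qa and Cd5l at 0 in all depleted libraries. Of the depleted sum, 74.5 to 103 CPM was Mertk, which was at 69.0 to 107 CPM in steady RPF. Whether reads of a human transgene were counted as Hbegf was not tested.

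Ereg (ENSMUSG00000029377, chromosome 5, 91074622 to 91093646, plus strand) encodes epiregulin, a ligand of EGFR and ERBB4. The depleted RPF libraries held 372, 380 and 385 counts, against 0 counts in each of the 3 steady RPF libraries. FRC libraries held 1, 0 and 0 counts. Ereg was therefore found in all depleted libraries at a similar level, 10.7, 10.3 and 8.59 CPM, and, apart from the single count in FRC library 1, in none of the other 6. The mean of 9.84 ± 1.11 CPM in depleted RPF was at least 415-fold higher than in steady RPF, taken against a floor of 3 counts over the steady group (edgeR adjusted p = 0.00172). Against the single FRC count the ratio was 933, with a 95% counting interval of 167 to 36894 (edgeR adjusted p = 0.00148). Intervals and floors cover counting error only. As Ereg passed the filter only through the depleted libraries, these p-values carry the limit given above for its calls. An antisense gene outside the count table shares 141 exon bases with Ereg, and the sources used here do not give the strand setting of the count, so reads of the pair cannot be told apart.

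Ereg has its nearest relatives beside it: Areg begins 45952 bases downstream on the same strand, and Btc, the gene of betacellulin, lies beyond it at 91357261 to 91402994 on the minus strand. The 3 neighbours had different patterns. Areg (ENSMUSG00000029378, 91139599 to 91148432), which encodes amphiregulin, had 0, 16 and 5 counts in depleted RPF, 4, 0 and 7 counts in steady RPF and 0 counts in every FRC library. Both RPF groups included a library with no count and overlapped each other. Areg did not pass the filter, and with no filter its edgeR adjusted p was 0.938 for depleted against steady RPF. Btc, whose product binds EGFR and ERBB4, had 1, 0 and 2 counts in depleted RPF, 97, 1 and 132 counts in steady RPF and 1799, 1278 and 1632 counts in FRC. Btc was thus abundant in all FRC libraries and uneven in steady RPF, where library 2 was as low as the depleted libraries. It averaged 2.15 ± 2.17 CPM in steady RPF and 49.0 ± 5.50 CPM in FRC (edgeR adjusted p = 0.0212, lost at 0.0504 without FRC library 1, 0.0752 without steady RPF library 1 and 0.128 without both). In depleted RPF Btc was called lower than in FRC (edgeR adjusted p = 0.00114) and lower than in steady RPF (adjusted p = 0.0202), although the RPF groups overlapped and the call between them was lost without any 1 of the depleted libraries (adjusted p 0.0621 to 0.0726) or without steady RPF library 3 (0.0591).

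Tgfa (ENSMUSG00000029999, chromosome 6, 86195223 to 86275719, plus strand) encodes transforming growth factor alpha, a ligand that binds EGFR alone. It stood at 8.21, 15.4 and 13.1 CPM in depleted RPF, 16.5, 9.36 and 20.0 CPM in steady RPF, and 80.0, 48.3 and 120.2 CPM in FRC. The RPF groups overlapped, and every FRC library lay above every RPF library. Tgfa averaged 15.3 ± 5.43 CPM in steady RPF against 82.8 ± 36.0 CPM in FRC, 5.42-fold lower in RPF (log2 fold change -2.44, SE 0.42, edgeR adjusted p = 0.00275). Depleted RPF, at 12.2 ± 3.65 CPM, were 6.78-fold lower than FRC (log2 fold change -2.76, SE 0.43, edgeR adjusted p = 0.0011). Between depleted and steady RPF the log2 fold change was -0.32 (SE 0.40, edgeR adjusted p = 0.649), so a change of Tgfa with depletion was not shown. An antisense gene outside the table shares 118 exon bases with Tgfa.

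Nrg1 (ENSMUSG00000062991, chromosome 8, 31814551 to 32884029, minus strand) encodes neuregulin 1, known for its role in Schwann cells and heart muscle. It had 0 counts in all depleted RPF libraries, 1, 0 and 0 counts in steady RPF and 0, 138 and 17 counts in FRC. Most of its counts therefore came from FRC library 2, and FRC library 1 had none. It did not pass the filter, and without a filter edgeR gave an adjusted p of 0.135 for steady RPF against FRC and 0.0667 for depleted RPF against FRC. Leaving out FRC library 1 alone, which had no Nrg1 count, let it pass the filter and gave adjusted p = 0.0473 and adjusted p = 0.0255 for the same comparisons. Nrg1 was also tested without each RPF library in turn and without both libraries that lack Y-linked reads. None of these fits called it. Their edgeR adjusted p ran from 0.1005 to 0.227 for steady RPF against FRC and from 0.0556 to 0.109 for depleted RPF against FRC. The 5 Schwann cell markers summed to 3.48 to 5.51 CPM in depleted RPF, 2.49 to 4.37 CPM in steady RPF and 20.2 to 38.1 CPM in FRC, mostly from Ngfr, which was at 16.5, 27.7 and 33.9 CPM in FRC. Sox10, the defining marker, was at 0 in FRC libraries 2 and 3, which held the Nrg1 counts. An antisense gene outside the table shares 482 exon bases with Nrg1.

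Egfr (ENSMUSG00000020122, chromosome 11, 16752203 to 16918158, plus strand) encodes the receptor that all the ligands above except neuregulin 1 bind. Its level was 229, 127 and 160 CPM in depleted RPF, against 94.96, 106 and 85.0 CPM in steady RPF. FRC libraries had 475, 638 and 478 CPM. The order was thus FRC, depleted RPF and steady RPF, with no overlap between the groups. Egfr averaged 95.3 ± 10.4 CPM in steady RPF and 531 ± 93.2 CPM in FRC, 5.57-fold lower in RPF (log2 fold change -2.48, SE 0.23, edgeR adjusted p = 6.8e-05). Depleted RPF, at 172 ± 51.9 CPM, were 3.08-fold lower than FRC (log2 fold change -1.63, SE 0.22, edgeR adjusted p = 0.000557). Depleted RPF were 1.81-fold higher than steady RPF (log2 fold change 0.85, SE 0.22, edgeR adjusted p = 0.0239). That last call was lost in 8 of 21 alternatives, among them leaving out depleted RPF library 1 (log2 fold change 0.59, adjusted p = 0.0682) or steady RPF library 1, 2 or 3 (adjusted p = 0.0718, 0.0517 and 0.0912).

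Egfr and Tgfa, the receptor and the ligand called lower in both RPF groups than in FRC, are shown by the 250 bases before their RefSeq start (GRCm38.p6, plus strand, 5′ to 3′), with matches to the GC box GGGCGG, searched on both strands, in capitals. Of the members, Areg, Tgfa and Egfr have an entry in the promoter table, and Hbegf, Ereg and Nrg1 are named only.
Egfr, chr11:16751953-16752202: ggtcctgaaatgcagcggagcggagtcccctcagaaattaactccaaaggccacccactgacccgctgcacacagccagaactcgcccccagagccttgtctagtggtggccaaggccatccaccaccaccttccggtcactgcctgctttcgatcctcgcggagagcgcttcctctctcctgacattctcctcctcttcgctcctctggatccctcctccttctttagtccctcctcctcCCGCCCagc
Tgfa, chr6:86194972-86195221: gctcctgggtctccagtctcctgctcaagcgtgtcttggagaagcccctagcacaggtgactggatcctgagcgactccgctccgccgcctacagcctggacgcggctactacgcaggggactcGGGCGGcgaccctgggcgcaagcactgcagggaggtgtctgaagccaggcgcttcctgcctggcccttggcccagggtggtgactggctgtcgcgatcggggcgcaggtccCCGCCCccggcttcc
The Egfr stretch is 60.8% G and C and holds 1 match on the minus strand, whose nearest base lies 4 bases before the start. The Tgfa stretch is 69.2% G and C and holds 2 matches, 121 and 10 bases before the start. Neither holds the TATA box TATAAA or the AP-1 letters TGANTCA on either strand. Of 32851 mouse promoters of that length, 32.7% hold the GC box letters, 12.4% TATAAA and 6.75% TGANTCA. A match describes the letters only.

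The other family members in the table were the ligands Btc, Nrg2, Egf and Nrg4 and the receptors Erbb2 and Erbb3. Epgn, Nrg3 and Erbb4 were not analysed here. Nrg2, which encodes a neuregulin that binds ERBB3 and ERBB4, had 10.3, 23.7 and 23.4 CPM in depleted RPF, 48.2, 28.5 and 40.9 CPM in steady RPF and 1.06, 0.409 and 0.149 CPM in FRC. All RPF libraries lay far above FRC, and the depleted libraries below the steady ones. Nrg2 was called higher in steady RPF than in FRC (log2 fold change 6.17, SE 0.72, edgeR adjusted p = 0.000281) and in depleted RPF than in FRC (log2 fold change 5.14, SE 0.69, adjusted p = 0.000498), and was not called between the RPF groups (log2 fold change -1.03, SE 0.57, adjusted p = 0.251). Egf and Nrg4 averaged under 1 CPM in both RPF groups and were called in no comparison. Erbb2, the co-receptor that binds no ligand itself, averaged 65.9 ± 18.2 CPM in depleted RPF, 72.1 ± 4.76 CPM in steady RPF and 60.8 ± 25.05 CPM in FRC, and was not called. Erbb3, the neuregulin receptor with a weak kinase, had 7.84, 0.324 and 6.11 CPM in depleted RPF, 10.2, 13.4 and 3.24 CPM in steady RPF and 4.67, 0.0341 and 0 CPM in FRC. It was not called either, but without FRC library 1 it was called higher than FRC in steady RPF (adjusted p = 0.0153) and in depleted RPF (adjusted p = 0.0167).

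**Figure D2:**
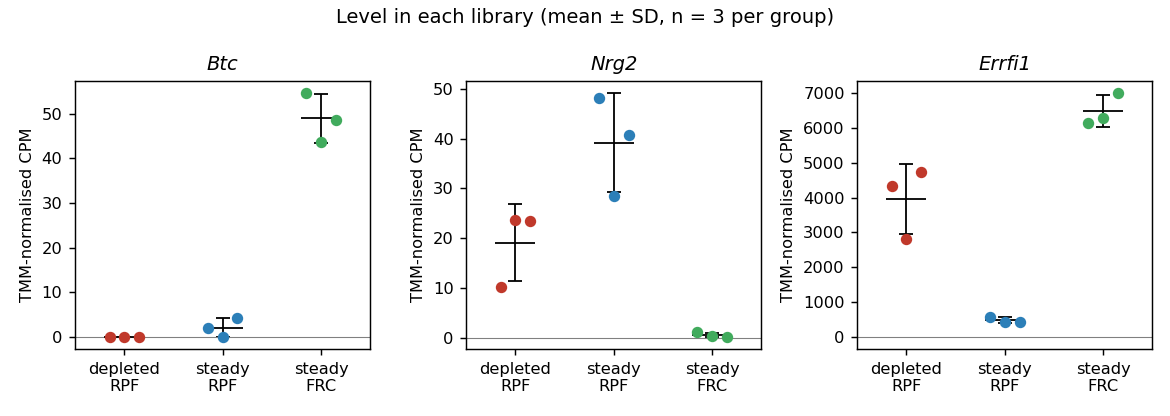
Level of Btc, Nrg2 and Errfi1 in every library, as TMM-normalised CPM on a linear axis that differs between panels; points are libraries, bars the mean and SD of 3 libraries. Btc stands out in FRC, Nrg2 in the RPF groups, and Errfi1 is lowest in steady RPF.

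Per kilobase of exon, the mean level of the receptor exceeded that of each ligand in depleted RPF and in FRC, but not in steady RPF, where Nrg2 had the higher mean. This order in steady RPF rests on the exon length used, 11326 bases for Egfr and 3139 for Nrg2; with the median transcript length of the deposited table, an alternative added after seeing the data, Egfr averaged 133 and Nrg2 36.7 CPM per kb there. With exon lengths, Egfr averaged 15.2 ± 4.58 CPM per kb in depleted RPF, 8.41 ± 0.92 CPM per kb in steady RPF and 46.9 ± 8.23 CPM per kb in FRC. Nrg2 averaged 6.09 ± 2.45 CPM per kb in depleted RPF, 12.5 ± 3.18 CPM per kb in steady RPF and 0.172 ± 0.150 CPM per kb in FRC. Hbegf averaged 12.0 ± 4.02 CPM per kb in depleted RPF, 3.32 ± 0.84 CPM per kb in steady RPF and 6.40 ± 1.77 CPM per kb in FRC. In depleted RPF, these means of Hbegf and Egfr were apart by less than their spread, with Egfr above Hbegf in each library. This closeness also rests on the exon length. With the deposited median transcript length, Egfr had 320, 177 and 224 CPM per kb in the depleted RPF libraries, and Hbegf 34.0, 19.2 and 20.4 CPM per kb. The levels by exon length put Hbegf at percentile 77.5 of the tested genes in depleted RPF, 52.1 in steady RPF and 64.7 in FRC.

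The make-up of the ligand mRNA was described by summing the 9 ligands in the table as CPM per kb of exon. Hbegf made up 69.9%, 42.4% and 46.2% of the sum in the depleted RPF libraries, 18.7%, 21.4% and 13.9% in steady RPF and 25.2%, 22.8% and 15.4% in FRC. Nrg2 made up 13.7%, 34.1% and 34.3% in depleted RPF, 67.1%, 67.6% and 64.8% in steady RPF, and at most 1.011% in FRC. By exon length, Hbegf thus led in every depleted library, Nrg2 in every steady RPF library, and Tgfa or Btc in FRC. By the deposited median transcript length, Nrg2 led in depleted RPF libraries 2 and 3, with 40.7% and 40.8% against 35.1% and 38.1% for Hbegf, and Tgfa led in every FRC library, so these ranks depend on the length. Nrg2 led in every steady RPF library with either length. Ereg made up 9.58% to 11.2% of the sum in depleted RPF. The 9 ligands together came to 21.7 to 23.9 CPM per kb in depleted RPF, 13.4 to 22.9 in steady RPF and 23.8 to 34.7 in FRC, so these sums overlapped between the RPF groups. Without Nrg2, Btc, Egf and Nrg4, the 5 member ligands summed to 14.2 to 20.5 CPM per kb in depleted RPF, 4.31 to 6.90 in steady RPF and 13.3 to 23.9 in FRC.

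**Figure D3:**
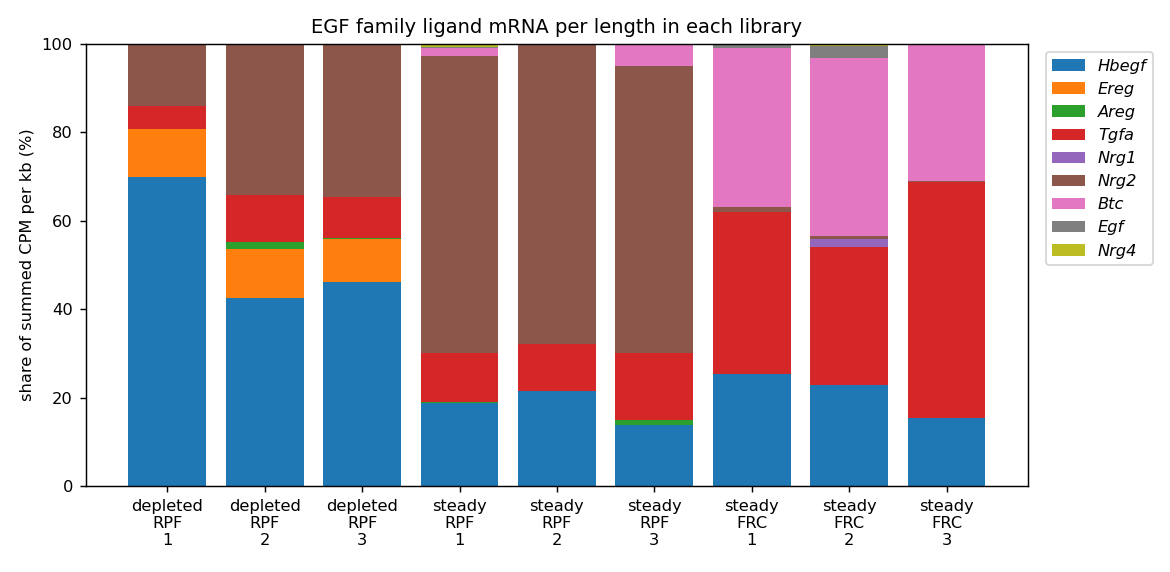
Share of each of 9 EGF family ligands in their summed mRNA per length (CPM per kb of exon, %) in each library; the rank of Hbegf and Nrg2 in depleted RPF libraries 2 and 3 turns with the deposited transcript lengths. Hbegf takes 42.4% to 69.9% in depleted RPF, Nrg2 takes 64.8% to 67.6% in steady RPF, and Tgfa with Btc take most of the bars of FRC.

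Genes that promote or limit the release of ligands were next. The list held 12 genes, all tested, among them shedding enzymes, their carriers and partners and 1 inhibitor of ADAM17, Timp3. Of the 12, 6 were called higher, Timp3 among them, and 2 lower in depleted than in steady RPF, beside 21.0% of all tested genes called, with a median log2 fold change of 0.89 against -0.09 over all tested genes. Rhbdf2 encodes iRhom2, which carries the main EGF ligand sheddase ADAM17 to the cell surface. It had 217, 154 and 147 CPM in depleted RPF, against 21.9, 24.9 and 17.1 CPM in steady RPF, an 8.11-fold rise with no overlap (log2 fold change 3.02, SE 0.21, edgeR adjusted p = 4.3e-05). Its relative Rhbdf1 averaged 166 CPM in depleted and 67.9 CPM in steady RPF (adjusted p = 0.000836). Frmd8, whose product stabilises the iRhoms, averaged 159 CPM in depleted and 85.0 CPM in steady RPF (adjusted p = 0.000786). The metalloproteinase gene Adam9 averaged 190 CPM in depleted and 90.2 CPM in steady RPF (adjusted p = 0.00033). Adam17 itself was at 64.4 to 67.3 CPM in depleted RPF and 35.1 to 52.0 CPM in steady RPF and did not pass the test (adjusted p = 0.129). The genes called lower were Adam10, which encodes another sheddase, at 55.4 CPM in depleted and 98.8 CPM in steady RPF (adjusted p = 0.00704), and the tetraspanin gene Cd9, at 40.3 CPM in depleted and 67.6 CPM in steady RPF (adjusted p = 0.02). Among other alternatives, the Cd9 call was lost without depleted RPF library 1 or 2 (edgeR adjusted p = 0.0725 and 0.0662). It was also lost without steady RPF library 1 or 3 (edgeR adjusted p = 0.0545 and 0.0742).

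In steady RPF against FRC, 3 of the 12 shedding genes were called higher, Timp3 again among them, and 6 lower, beside 25.9% of all tested genes, with a median log2 fold change of -0.52 against -0.02 over all tested genes; plain library size scaling turned these to 5 higher and 4 lower and a median of 0.06, with the median of all tested genes moved by 0.57. Timp3 averaged 902 ± 51.1 CPM in steady RPF and 137 ± 23.9 CPM in FRC (edgeR adjusted p = 1.1e-05). Rhbdf2 averaged 21.3 CPM in steady RPF and 86.9 CPM in FRC (adjusted p = 9.7e-05). Cd9 averaged 67.6 CPM in steady RPF and 246 CPM in FRC (adjusted p = 0.000117), and Adam15 73.6 CPM in steady RPF and 208 CPM in FRC (adjusted p = 0.000133). Timp3 was also called higher in depleted than in steady RPF, at 1649 CPM in depleted RPF (adjusted p = 0.00761). In depleted RPF against FRC, 5 of the 12 were called higher and 3 lower, beside 16.9% of all tested genes called higher and 18.8% lower. Rhbdf2 was among those called higher, at 173 CPM in depleted RPF (adjusted p = 0.00388).

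Of 17 adaptors and effectors between the receptor and ERK, all tested, 4 were called higher and 1 lower in depleted than in steady RPF (median log2 fold change 0.25). With 21.0% of all tested genes called there and 25.9% in steady RPF against FRC, the counts of this list lie near the background. Shc1, an adaptor of activated receptors, averaged 203 CPM in depleted and 134 CPM in steady RPF (edgeR adjusted p = 0.00246). Nras, a RAS gene, averaged 61.0 CPM in depleted and 29.9 CPM in steady RPF (adjusted p = 0.00281), and Stat3, a transcription factor downstream of many receptors, 1229 CPM in depleted and 802 CPM in steady RPF (adjusted p = 0.00715). Plcg1, a phospholipase that binds the receptor, was called lower, at 17.7 CPM in depleted and 60.1 CPM in steady RPF (adjusted p = 0.00762). In steady RPF against FRC, 1 was called higher and 3 lower (median log2 fold change -0.20), and 8 higher and 1 lower under plain library size scaling (median 0.38). Stat3 and Nras were lower in steady RPF than in FRC, where they averaged 1558 and 55.0 CPM (adjusted p = 0.000477 and 0.00508). In depleted RPF against FRC, 6 were called higher and 2 lower, beside 35.8% of all tested genes.

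Of 16 tested genes whose products inhibit or turn over the receptor or limit ERK, 8 were called higher and 0 lower in depleted than in steady RPF, beside 21.0% of all tested genes called, with a median log2 fold change of 0.81. Errfi1, which encodes MIG6, a protein that binds the EGFR kinase and blocks it, had 4330, 2821 and 4730 CPM in depleted RPF, 587, 444 and 430 CPM in steady RPF and 6140, 6290 and 6989 CPM in FRC. Steady RPF were far below the other groups, and no groups overlapped. The rise with depletion was 8.13-fold (log2 fold change 3.02, SE 0.21, edgeR adjusted p = 4.9e-05), and steady RPF were 13.3-fold lower than FRC (log2 fold change -3.73, SE 0.22, adjusted p = 5e-06). Spry4 and Spry1, which encode Sprouty inhibitors of RAS signalling, averaged 326 and 209 CPM in depleted RPF and 71.0 and 97.4 CPM in steady RPF (adjusted p = 0.00046 and 0.00221). Dusp5, an ERK phosphatase gene, averaged 70.1 CPM in depleted and 19.7 CPM in steady RPF (adjusted p = 0.00343). In steady RPF against FRC, 1 of the 16 was called higher and 7 lower, beside 25.9% of all tested genes (median log2 fold change -0.93), and 4 higher and 6 lower under plain library size scaling. Cblb, a gene for a ubiquitin ligase that turns over receptors, averaged 8.98 CPM in steady RPF and 115 CPM in FRC (adjusted p = 3.4e-05), and the ERK phosphatase gene Dusp6 was the exception, at 185 CPM in steady RPF and 61.3 CPM in FRC (adjusted p = 0.000119). In depleted RPF against FRC, 4 were called higher and 5 lower, beside 16.9% of all tested genes called higher and 18.8% lower. Under plain library size scaling, 7 were called higher and 2 lower.

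Of 10 genes known to respond to ERK, Etv4 did not pass the filter, and of the 9 tested, 6 were called higher and 0 lower in depleted than in steady RPF, beside 21.0% of all tested genes called, with a median log2 fold change of 2.26. Plaur, which encodes the urokinase receptor, had 760, 488 and 556 CPM in depleted RPF, against 16.3, 11.9 and 11.2 CPM in steady RPF, a 45.8-fold rise (log2 fold change 5.52, SE 0.27, edgeR adjusted p = 8e-06). The growth regulator gene Myc averaged 255 CPM in depleted and 53.1 CPM in steady RPF (adjusted p = 0.000301), Phlda1 48.3 CPM in depleted and 9.46 CPM in steady RPF (adjusted p = 0.000321), and the transcription factor gene Maff 23.3 CPM in depleted and 3.77 CPM in steady RPF (adjusted p = 0.000369). The immediate early genes Egr1 and Fos did not pass this test (adjusted p = 0.0722 and 0.146). In steady RPF against FRC, 0 of 9 were called higher and 8 lower, beside 25.9% of all tested genes (median log2 fold change -3.19). Myc averaged 53.1 CPM in steady RPF and 1723 CPM in FRC (adjusted p = 4e-06), Egr1 1722 CPM in steady RPF and 15691 CPM in FRC (adjusted p = 7e-06), and Fosl1 3.67 CPM in steady RPF and 336 CPM in FRC (adjusted p = 1.2e-05). In depleted RPF against FRC, 1 was called higher (Plaur) and 7 lower, beside 16.9% of all tested genes called higher and 18.8% lower. Immediate early genes such as Fos and Egr1 are also known to rise while tissue is digested, and the part of digestion in these levels was not tested.

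**Figure D4:**
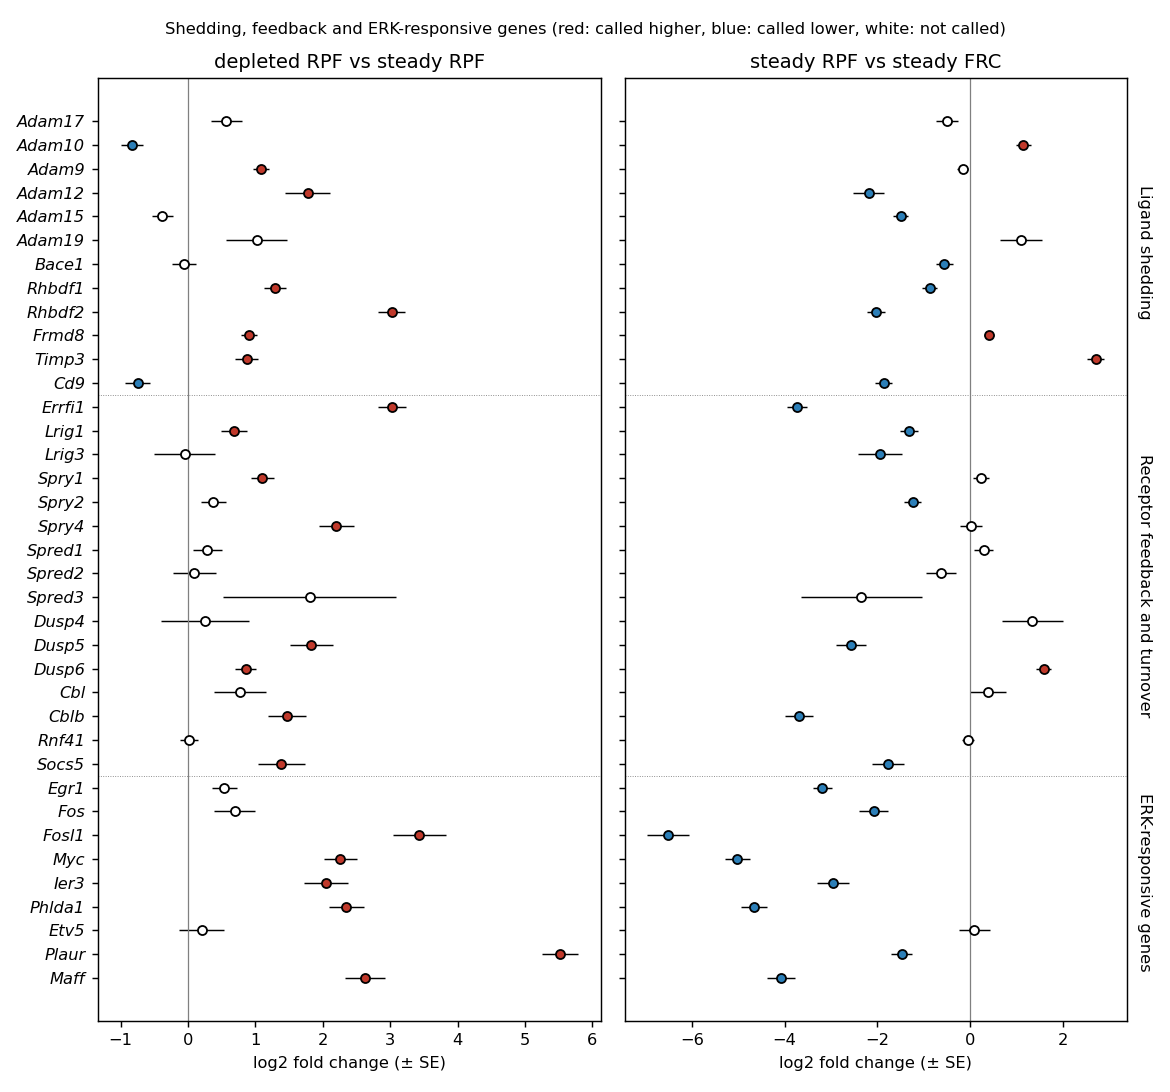
Log2 fold change with its standard error for genes of ligand shedding, receptor feedback and ERK response, in depleted against steady RPF (left) and steady RPF against FRC (right); red points were called higher, blue points lower and white points not called. Of the ERK-responsive genes, 6 were called higher on the left and 8 lower on the right; steady RPF enter both panels.

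Markers of other cells were measured beside these genes; blood cells with CD45 should be lost in the CD45-negative enrichment, whereas endothelial and mesothelial cells lack CD45. The 4 monocyte markers in the table summed to 490 to 625 CPM in depleted RPF, 273 to 421 CPM in steady RPF and 133 to 192 CPM in FRC, most of it Plac8. Plac8 was called higher in depleted than in steady RPF, at 480 to 615 CPM in depleted and 220 to 408 CPM in steady RPF, and Lyz2 was called lower, at 8.67 to 10.4 CPM in depleted and 11.6 to 46.6 CPM in steady RPF. Cx3cr1 was at 0 in all depleted libraries. The 8 neutrophil markers summed to 2.37 to 48.2 CPM in depleted RPF, 47.3 to 350 CPM in steady RPF and 0.99 to 6.56 CPM in FRC. The 5 mast cell and basophil markers in the table summed to 24.1 to 44.6 CPM in depleted RPF, 13.5 to 32.5 CPM in steady RPF and 0.0911 to 1.55 CPM in FRC, nearly all of it Gata2 in depleted RPF, with Cpa3 and Fcer1a at 0. The 5 megakaryocyte and platelet markers summed to 37.6 to 47.8 CPM in depleted RPF, 20.4 to 24.3 CPM in steady RPF and 5.70 to 20.1 CPM in FRC. Pf4, which made up most of the depleted sum, was the 1 gene called higher after depletion. Ppbp lay the other way, at 0.432 to 1.47 CPM in depleted and 4.00 to 6.88 CPM in steady RPF, and was not called. The 7 B cell and plasma cell markers summed to 82.5 to 120 CPM in depleted RPF, 182 to 378 CPM in steady RPF and 335 to 431 CPM in FRC, with Ighm and Jchain called lower after depletion. The 6 markers of T cells and innate lymphoid cells in the table summed to 1.75 to 4.24 CPM in depleted RPF, 0.958 to 2.75 CPM in steady RPF and 9.76 to 19.3 CPM in FRC, with none called between the RPF groups. The 7 endothelial markers summed to 29.8 to 37.7 CPM in depleted RPF, 75.0 to 174 CPM in steady RPF and 62.1 to 76.5 CPM in FRC. Tek was the largest part of the steady RPF sums, at 133, 108 and 31.4 CPM. It was the 1 endothelial gene called lower after depletion, and none was called higher. The 6 erythroid markers summed to 391.6 to 609 CPM in depleted RPF, 164 to 713 CPM in steady RPF and 0.477 to 99.1 CPM in FRC, and overlapped between the RPF groups. The 7 mesothelial markers summed to 0 to 2.18 CPM in depleted RPF, 0.809 to 11.4 CPM in steady RPF and 18.7 to 22.1 CPM in FRC. The part of other cells in the members' levels was not tested.

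The genes whose profile over the 9 libraries was nearest to each tested member were found by the root mean square (RMS) difference of centred log2 CPM, among 11992 genes. For Hbegf these were Il4ra (RMS 0.174), Bzw2 (0.216) and Shq1 (0.247). Il4ra, which encodes the interleukin 4 receptor alpha chain, averaged 311 ± 76.2 CPM in depleted RPF, 92.5 ± 3.01 CPM in steady RPF and 179 ± 45.2 CPM in FRC. For Ereg they were Mmp13 (RMS 0.502), Kcnmb1 (0.645) and Npr3 (0.738). Mmp13, a collagenase gene, averaged 11.1 ± 6.75 CPM in depleted RPF and was at 0 in the steady RPF and FRC libraries. For Tgfa they were B4galnt1 (RMS 0.275), Col1a1 (0.365) and Cd72 (0.416), and for Egfr Nudt4 (0.205), Mat2a (0.224) and Vasn (0.231).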

How the data were processed

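The authors deposited whole-number read counts for each Ensembl gene, taken here unchanged. Per the submitters' processing notes, the tools were HTSeq 0.6.1p1, STAR 2.5.3a, Bowtie2 2.2.8 and cutadapt 1.10, and the build was mm10; strand setting and annotation release: not given in the sources used here. Another 24 per-sample columns, not used, hold normalized values and further libraries. The deposited median transcript length, another quantity in the authors' table, was replaced by union exon length from GENCODE M21 (27351 of 27370 IDs matched), since counts cover all exons. Promoters are from RefSeq.

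Counts of 9 libraries were fitted in R 4.3.3 with edgeR 4.0.16 (TMM, filterByExpr, 1 term per group, robust quasi-likelihood, two-sided). A library is 2 pooled mice, and p-values measure the spread between libraries. The members and gene lists were chosen with earlier results of these data known. Named genes were all ligands and receptors and, in each other pathway list, at most 4 called genes with the smallest adjusted p per comparison; genes named beyond this rule (Adam17, Adam10, Cd9, Egr1 and Fos after depletion, and repeats across comparisons) were chosen after their values were seen. Genes like a member came from those with a mean of at least 1 CPM, with a prior count of 2, gene models left out. A group at 0 counts was set to a floor of 3 counts over the group.

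Alternatives were RLE, upper quartile and plain library size scaling, no filter, a filter of 1 CPM, DESeq2 1.42.0, limma-voom (limma 3.58.1), a fit to the compared groups only, no robust prior, a 1.5-fold threshold test and leaving out each library. Leaving out both libraries that lack Y-linked reads, a term for them, and the deposited transcript length for levels per kb were added after seeing the data. Python 3.11.15 with matplotlib 3.10.9 drew the figures.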

Additional observations from a re-analysis of the deposited data

How the results depend on the processing

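In each of the 21 alternatives, Hbegf stayed called higher in depleted than in steady RPF. Tgfa and Egfr stayed called lower in both RPF groups than in FRC in each of them. Ereg also stayed called higher in depleted than in steady RPF. With 0 counts in steady RPF, Ereg could not be called lower, so its stability lends no support. No called difference of a member changed sign. Under plain library size scaling, list medians in steady RPF against FRC turned sign, to 0.06 for shedding and 0.38 for adaptors, as did Bace1, called lower in the fit reported (log2 fold change 0.03, adjusted p = 0.934, under plain scaling). The fit reported, with 4 members among 15103 tested genes, called 21.0%, 25.9% and 35.8% of all tested genes in the 3 comparisons. Leaving out 1 library at a time gave 2 to 3 members called in depleted against steady RPF, 2 to 3 in steady RPF against FRC and 3 to 5 in depleted RPF against FRC. The 5 include Nrg1, called only without FRC library 1. These leave-out fits tested 16050 to 16342 genes, and the set of members tested differed between them, so the ranges do not follow 1 fixed set. Over all tested genes, the same fits called 1176 to 1729 higher and 968 to 1561 lower in depleted against steady RPF, 1168 to 1583 higher and 1620 to 2123 lower in steady RPF against FRC, and 2009 to 2353 higher and 2283 to 2681 lower in depleted RPF against FRC. In depleted against steady RPF, where the fit reported called 1671 higher and 1505 lower, DESeq2 called 2320 lower, the test against a 1.5-fold change 855 higher and 815 lower, the fit without both libraries that lack Y-linked reads 963 lower, and plain library size scaling 1297 higher and 1864 lower. In steady RPF against FRC, where it called 1734 higher and 2174 lower, plain library size scaling called 3935 higher and 1342 lower, the 1.5-fold test 1095 higher and 1447 lower, and the fit without both libraries 1129 higher. In depleted RPF against FRC, where it called 2557 higher and 2843 lower, plain scaling called 3933 higher and 2125 lower, and the 1.5-fold test 1579 higher. Plain scaling moved the median log2 fold change of all tested genes by -0.17, 0.57 and 0.40 in the comparisons in this order. Beyond the construction of a stricter test or a smaller fit, the cause was not tested. No paired analysis was possible because the labels give no replicate numbers and do not say which libraries share mice. Areg and Nrg1 did not pass the filter on low counts in the fit reported, and a difference in Areg between the RPF groups was not detectable at its counts.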
